A study of Mus musculus with 19 samples.

Results

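The 38 genes described here encode Wnt ligands (12 genes), Frizzled receptors (10), the Lrp5 and Lrp6 coreceptors, R-spondins and their Lgr receptors (5), secreted antagonists (5) and 4 intracellular or feedback components of the pathway. They were chosen by name from 21887 protein-coding genes, without the Wnt genes of the cortical hem and without the Lef/Tcf factors. Open chromatin had been profiled by ATAC-seq, in which a transposase cuts accessible DNA, in Prom1-positive cells taken from mouse forebrain at embryonic day 14 on magnetic beads. Prom1 is a membrane glycoprotein found on progenitor cells. The 19 libraries comprised 6 Foxc1 mutants (hith/LacZ genotype) on an RA diet, 4 such mutants without the diet, 5 wild-type controls on the RA diet and 4 controls without it. Foxc1 is a transcription factor of the meninges, hith is a hypomorphic allele of it, and the mutation is not restricted to the sorted cells. RA stands for retinoic acid. For mutant 1 the genotype label (Foxc1 WT) and the title disagree. It was kept with the mutants, as titled. The labels do not say whether the libraries of a group came from separate embryos, so the p-values below measure only the spread between these libraries.

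Each library is a list of peak summits. A summit counted for whichever protein-coding gene had an end closest to it, up to 100 kb away, so a gene's set can hold sites that act on a neighbour. Lists held 29112 to 122591 summits, the shortest being that of mutant 4 on the RA diet. The 29112 summits with the highest scores were taken from every list and are called matched summits. The score at the last matched rank ran between 1.305 and 53.7 among the libraries. Where a gene lacks matched summits in some libraries, counts over all deposited summits, matched ones included, are given beside the matched counts. Sox2, a defining transcription factor of neural progenitors, had a matched summit at a gene end in all 19 libraries, and Prom1 itself in 13. Pax6, another neural progenitor gene, had one in 1 library. All 19 libraries had one for 9 of 12 neural progenitor genes, against 3 of 9 projection neuron genes, 0 of 10 meningeal, 1 of 10 endothelial, 0 of 7 mural, 1 of 8 microglial and 0 of 6 erythroid genes. Others fell short of all 19, among them Nes (neural progenitor, 18 libraries), Col1a1 (meningeal, 18), Spi1 (microglial, 18), Erg (endothelial, 17) and Kcnj8 (mural, 15). The 10 meningeal genes together held 12 to 16 matched summits in mutants on the RA diet, 10 to 14 in mutants, 10 to 13 in controls on the RA diet and 10 or 11 in controls. The 7 mural genes held 1 to 6, 3 or 4, 4 or 5 and 5 or 6 in the same order. The part of such cells in the results below was not tested. Foxc1 itself had a gene-end summit in 5 libraries, and the genotype labels were not checked by it.

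Wnt ligands are secreted lipid-modified proteins that bind a Frizzled receptor together with Lrp5 or Lrp6. Binding spares beta-catenin from destruction, and beta-catenin then works with Tcf/Lef factors in the nucleus. R-spondins, through Lgr receptors, keep Frizzled receptors on the cell surface, whereas Dkk and Sfrp proteins hold the pathway back outside the cell. In the developing forebrain Wnt signals pattern the dorsal midline and keep cortical progenitors dividing, and Wnt7a and Wnt7b also act on the vessels that grow into the neural tube.

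The promoters of this family were mostly rich in CpG dinucleotides whether or not they carried a matched summit. RefSeq promoter sequences (GRCm38.p6, 250 bases before the start and 50 after it, 300 in all) were listed for 25 of the 38 genes, as 29 promoters. The 4 shown first had a matched summit within 500 bp of the listed start in all 19 libraries, and the 3 after them had one in none. CpG dinucleotides are in capitals and each sequence runs 5′ to 3′ in the direction of its gene.
Fzd5: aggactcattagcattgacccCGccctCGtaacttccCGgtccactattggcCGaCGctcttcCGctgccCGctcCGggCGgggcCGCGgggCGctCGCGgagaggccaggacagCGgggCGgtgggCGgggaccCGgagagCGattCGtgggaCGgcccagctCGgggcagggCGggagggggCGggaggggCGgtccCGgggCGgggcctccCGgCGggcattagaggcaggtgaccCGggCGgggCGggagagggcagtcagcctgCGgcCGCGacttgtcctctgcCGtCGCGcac
Fzd7: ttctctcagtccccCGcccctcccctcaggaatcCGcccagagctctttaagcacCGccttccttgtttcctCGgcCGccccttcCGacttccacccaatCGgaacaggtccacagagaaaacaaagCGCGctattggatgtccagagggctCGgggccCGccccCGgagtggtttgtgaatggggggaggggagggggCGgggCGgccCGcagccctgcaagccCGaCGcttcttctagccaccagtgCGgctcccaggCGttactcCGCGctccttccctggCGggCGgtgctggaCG
Axin2: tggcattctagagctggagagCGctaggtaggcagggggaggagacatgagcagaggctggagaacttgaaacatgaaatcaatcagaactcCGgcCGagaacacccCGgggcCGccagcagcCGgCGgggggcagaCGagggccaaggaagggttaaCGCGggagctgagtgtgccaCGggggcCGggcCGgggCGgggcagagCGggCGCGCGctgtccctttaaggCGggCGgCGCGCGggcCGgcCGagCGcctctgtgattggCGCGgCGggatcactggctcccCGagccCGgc
Sfrp2: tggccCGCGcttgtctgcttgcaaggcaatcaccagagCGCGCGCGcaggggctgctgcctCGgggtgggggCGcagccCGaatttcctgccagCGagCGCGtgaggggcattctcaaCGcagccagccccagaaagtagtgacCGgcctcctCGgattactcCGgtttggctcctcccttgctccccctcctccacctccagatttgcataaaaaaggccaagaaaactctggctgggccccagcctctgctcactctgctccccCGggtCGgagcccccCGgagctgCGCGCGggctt
Wnt1: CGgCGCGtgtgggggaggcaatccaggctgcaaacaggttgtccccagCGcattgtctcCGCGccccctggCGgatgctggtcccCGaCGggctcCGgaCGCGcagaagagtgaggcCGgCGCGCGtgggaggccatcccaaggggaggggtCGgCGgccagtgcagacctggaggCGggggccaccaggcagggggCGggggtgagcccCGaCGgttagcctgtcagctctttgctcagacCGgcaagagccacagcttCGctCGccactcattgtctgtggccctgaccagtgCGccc
Wnt6: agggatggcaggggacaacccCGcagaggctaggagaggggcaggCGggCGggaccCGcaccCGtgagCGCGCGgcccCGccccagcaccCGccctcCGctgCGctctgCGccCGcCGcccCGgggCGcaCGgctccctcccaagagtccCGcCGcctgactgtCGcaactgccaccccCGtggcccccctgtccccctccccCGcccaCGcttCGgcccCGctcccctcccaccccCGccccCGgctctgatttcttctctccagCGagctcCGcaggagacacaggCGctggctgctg
Wnt9a: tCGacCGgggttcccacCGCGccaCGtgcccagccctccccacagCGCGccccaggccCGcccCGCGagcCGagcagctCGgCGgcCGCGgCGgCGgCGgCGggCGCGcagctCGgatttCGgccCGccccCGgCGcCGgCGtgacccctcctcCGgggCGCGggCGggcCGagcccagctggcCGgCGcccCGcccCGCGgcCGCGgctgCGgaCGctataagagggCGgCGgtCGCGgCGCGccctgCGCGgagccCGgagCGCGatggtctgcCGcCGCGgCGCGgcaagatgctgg

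Fzd5 (chr1:64737701-64738000, minus strand) held 38 CpG, Fzd7 (chr1:59481897-59482196, plus strand) 24, Axin2 (chr11:108920099-108920398, plus strand) 31 and Sfrp2 (chr3:83766071-83766370, plus strand) 22. Among the promoters without a matched summit, Wnt1 (chr15:98789607-98789906, plus strand) held 26 CpG, Wnt6 (chr1:74771642-74771941, plus strand) 31 and Wnt9a (chr11:59306680-59306979, plus strand) 58. The 7 promoters with a matched start summit in every library held a median of 24 CpG and the 11 without one in any library a median of 26. Over all 21263 promoters of protein-coding genes the same medians were 23 in the 7146 that had a summit in every library and 3 in the 9772 that had none. Of promoters with at least 20 CpG, 5 of the family's 20 (25.0%) had a start summit in every library, against 4572 of 7641 (59.8%) over all genes. The 7 family promoters of that density without a matched summit in any library were those of Wnt1, Wnt2, Wnt3, Wnt6, Wnt9a, Rspo1 and the upstream start of Wnt11. Promoters of 1 gene can overlap, as the 2 of Ctnnb1 do, so these are descriptions of promoters and not of independent genes. The 13 family genes without a listed promoter, which include Fzd2, Fzd3, Fzd8 and Sfrp1, are missing from these shares. Each of these named genes had a matched summit at a gene end in all 19 libraries.

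**Figure D1:**
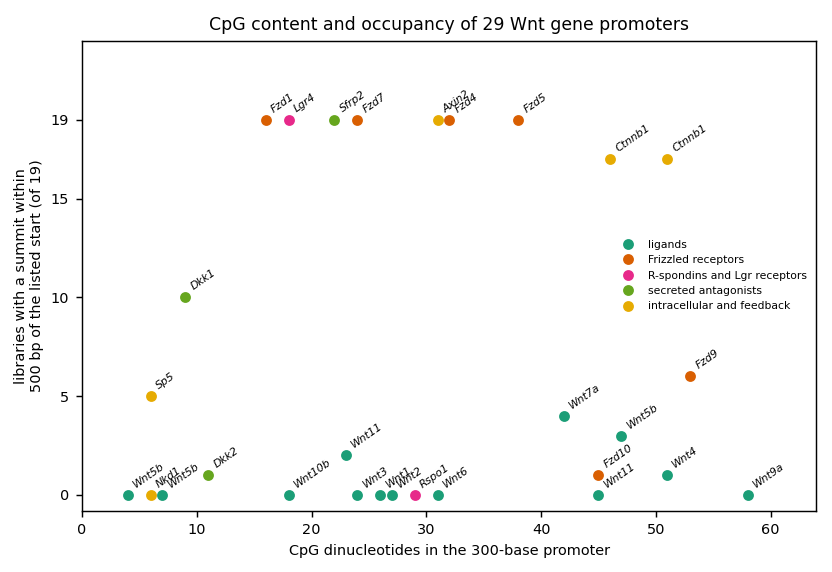
CpG dinucleotides in each of the 29 listed Wnt family promoters (x axis) against the number of the 19 libraries with a matched summit within 500 bp of the listed start (y axis), with 1 point per promoter, coloured by role. Fzd1, Fzd4, Fzd5, Fzd7, Lgr4, Sfrp2 and Axin2 lie at 19 libraries, and most ligand promoters lie at or near 0 although many hold over 20 CpG.

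The promoters of Sp5 and Dkk1, both known targets of the pathway, held 2 Tcf/Lef cores each, more than any other listed promoter of the family. The cores searched were CTTTGAT as well as CTTTGAA, together with CTTTGTT and also CTTTGTA, on both strands, and they are in capitals here.
Sp5: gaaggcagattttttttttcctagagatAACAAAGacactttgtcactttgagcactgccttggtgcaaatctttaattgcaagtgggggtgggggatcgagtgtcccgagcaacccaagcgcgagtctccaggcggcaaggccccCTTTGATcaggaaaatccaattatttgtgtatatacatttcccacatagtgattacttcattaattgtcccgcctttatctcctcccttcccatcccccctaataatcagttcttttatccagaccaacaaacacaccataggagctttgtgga
Dkk1: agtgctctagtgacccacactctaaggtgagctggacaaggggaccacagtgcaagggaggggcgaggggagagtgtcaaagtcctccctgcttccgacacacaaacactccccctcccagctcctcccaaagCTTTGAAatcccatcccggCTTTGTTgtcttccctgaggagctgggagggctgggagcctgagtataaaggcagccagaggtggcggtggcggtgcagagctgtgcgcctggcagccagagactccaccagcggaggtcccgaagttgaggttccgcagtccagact

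Sp5 lies at chr2:70474673-70474972 on the plus strand and Dkk1 at chr19:30549447-30549746 on the minus strand. Such a core was present in 6 of the 29 family promoters (20.7%), the others being in Wnt3, Wnt5b, Wnt11 and Fzd7, and in 14.7% of all 21263 promoters. Retinoic acid receptor half-sites, searched as AGGTCA and GGTTCA, were in 4 of 29 (13.8%) against 22.6% of all promoters. Sox cores, searched as CATTGTT and CTTTGTT, of which the second is also a Tcf/Lef core, were in 13.8% against 8.03%. The Rbpj core TGGGAA was in 13.8% against 24.5%, and the E-box CAGCTG in 10.3% against 15.6%. A match describes the letters only.

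Gene ends and distal sites divided by role. A matched summit within 1 kb of a gene end was present in all 19 libraries for 7 of 10 Frizzled genes, for 2 of 5 secreted antagonists, for 1 of 5 R-spondin and Lgr genes and for 1 of 4 intracellular genes. None of the 12 ligands and neither coreceptor had one in all libraries. Over the family this came to 11 of 38 genes (28.9%), against 6511 of 21887 protein-coding genes (29.7%). With all deposited summits it was 15 of 38 (39.5%) against 35.5%. A further 12 family genes (31.6%) had a matched end summit in no library, against 47.0% of all genes, and of these only Wnt11 had none among the deposited summits either. Ends here are the outer ends of a gene. Wnt11 did have a matched region in 16 libraries at -0.758 kb from a listed start that lies inside the gene.

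**Figure D2:**
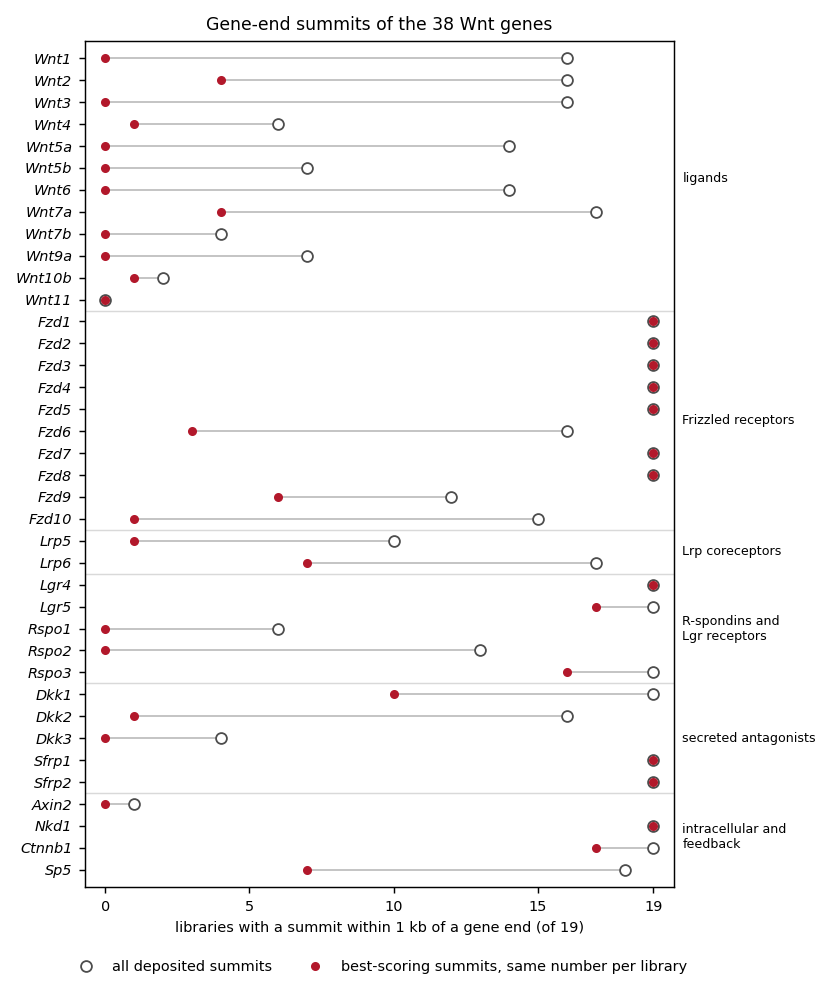
Number of the 19 libraries with a summit within 1 kb of either gene end for each of the 38 Wnt family genes, with filled points for matched summits and open points for all deposited summits. Frizzled genes from Fzd1 to Fzd5 and Fzd7 and Fzd8 have both points at 19, whereas ligands have filled points between 0 and 4 libraries.

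Ligand genes held 410 matched summits over the 19 libraries, of which 2.44% lay within 1 kb of a gene end. This share counts outer ends only. Besides the Wnt11 region above, a Wnt6 region lay 1.38 kb past a listed start inside the gene, in 16 libraries. A Wnt7b region lay 1.39 kb from an end, in 18 libraries. Wnt2 and Wnt7a had a matched end summit in 4 libraries each, and Wnt4 and Wnt10b in 1 each. The other 8 ligands, Wnt1, Wnt3, Wnt5a, Wnt5b, Wnt6, Wnt7b, Wnt9a and Wnt11, had none. Deposited summits of any rank, matched ones included, lay at the ends of 11 of the 12 ligands. They were found in 17 libraries for Wnt7a, in 16 each for Wnt1, Wnt2 and Wnt3, and in 14 each for Wnt5a and Wnt6. For Wnt4, Wnt5b, Wnt7b, Wnt9a and Wnt10b the number was 2 to 7. All 14 of those at Wnt6 lay at its far end. For Wnt5b, 3 libraries had a matched summit within 500 bp of its outermost start, which counted for the overlapping protein-coding gene Gm52875, whose end lies nearer.

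The ligand with the most open sites was Wnt7b, at 8.37 matched summits per library on average, the highest of the 38 genes. Per library it had 8, 7, 8, 9, 7 and 10 summits in mutants on the RA diet, 11, 9, 6 and 6 in mutants, 9, 10, 10, 8 and 7 in controls on the RA diet, and 9, 9, 9 and 7 in controls. All 4 groups overlapped. Of its 12 regions (matched summits chained at most 200 bp apart and seen in at least 2 libraries) none lay at an end and 11 lay 10 to 100 kb away. The remaining region, chr15:85583188-85583347, lay 1.39 kb from an end and was seen in 18 libraries. The 2 regions shared by all libraries were chr15:85625717-85626235 at 44.2 kb and chr15:85634622-85634758 at 52.9 kb. The farther of these lies inside the long noncoding gene D130051D11Rik.

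Wnt7a followed with 4.05 matched summits per library and 10 regions. Its counts were 3, 5, 3, 5, 5 and 4 in mutants on the RA diet, 4, 4, 2 and 4 in mutants, 4, 5, 5, 4 and 3 in controls on the RA diet, and 4, 5, 3 and 5 in controls, with overlap between all groups. The region open in every library was chr6:91346165-91346225, 65.2 kb downstream of the listed start and 17.8 kb beyond the far end of the gene. Its start region was seen in 3 libraries.

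The remaining ligands had few sites. Wnt1, a ligand of the midbrain and dorsal midline, had exactly 1 matched summit in each of the 19 libraries, at chr15:98798163-98798277, 4.4 kb beyond its 3′ end and not at its start. Wnt5b likewise had 1 in each library, at chr6:119452069-119452324, inside the gene at -2.81 kb from the nearest listed start, which is an internal one. Wnt11 had 2 to 4 per library. Its region open in all libraries, chr7:98815306-98815427, lies 19.8 kb before the gene and 49 bp from a proline transfer RNA gene, n-TPtgg8. The Wnt11 region near its inner listed start is chr7:98838049-98838126, seen in 16 libraries. Wnt4 (1.11 summits per library), Wnt5a (1.00) and Wnt6 (0.895) had at most 2 in any library. Wnt3 and Wnt9a each averaged 0.421, Wnt2 0.211 and Wnt10b 0.0526.

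Frizzled genes, which encode the cell-surface receptors of the ligands, held 329 matched summits, 48.9% of them at gene ends. Fzd1, Fzd2, Fzd3, Fzd4, Fzd5, Fzd7 and Fzd8 had an end summit in all 19 libraries. For the 4 of these with a listed promoter, median summit positions were 144 bp downstream of the start for Fzd1 and 6, 140 and 110 bp upstream for Fzd4, Fzd5 and Fzd7. Fzd9, Fzd6 and Fzd10 had an end summit in 6, 3 and 1 libraries among matched summits and in 12, 16 and 15 among all deposited ones. Fzd9 had the densest sites of the family for the territory nearer to it than to any other gene, at 12.4 matched summits per 100 kb of territory. Its region in all libraries was chr5:135254111-135254276, 3.17 kb upstream of the gene. Fzd4 also had a distal region in all libraries, chr7:89338742-89338871, which lies 65.5 kb from the gene and inside Tmem135, so its assignment to Fzd4 is by distance alone.

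Fzd8 was the Frizzled gene with the most sites, 4.26 per library. It had 5, 4, 4, 5, 5 and 4 matched summits in mutants on the RA diet, 2, 4, 5 and 4 in mutants, 4, 5, 4, 5 and 4 in controls on the RA diet, and 4, 4, 4 and 5 in controls. The value of 2 belongs to mutant 1, the library whose genotype label goes against its title, and every other library had 4 or 5. Of its 6 regions, 2 were seen in all libraries, at 750 bp and 65.1 kb from a gene end.

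The coreceptor genes Lrp5 and Lrp6 had end summits in 1 and 7 libraries. Lrp6 averaged 2.84 matched summits per library, with 2 regions in all 19 libraries inside the gene, chr6:134495005-134495180 and chr6:134500941-134501001. Lrp5 averaged 1.05, with 3 regions inside the gene seen in 2 to 9 libraries.

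Among the R-spondin and Lgr genes, Lgr4 and Lgr5, which encode R-spondin receptors, stood above the ligands that bind them. Lgr4 had an end summit in all 19 libraries, 4.53 matched summits per library and 3 regions in every library. It had 4, 5, 5, 6, 5 and 4 in mutants on the RA diet, 4, 4, 5 and 6 in mutants, 4, 4, 4, 5 and 5 in controls on the RA diet and 4 in each control. Its regions inside the gene chr2:109953307-109953511 and chr2:109960346-109960475 were open in all libraries, 35.8 and 42.8 kb downstream of the start. Lgr5, known as a stem cell marker of several tissues, had an end summit in 17 libraries and averaged 2.74. Rspo3 had an end summit in 16 libraries, while Rspo1 and Rspo2 had none and averaged 0.0526 and 0.263 matched summits.

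Secreted antagonists held 343 matched summits, 14.3% at gene ends. Sfrp1 and Sfrp2, which encode secreted Frizzled-related proteins that bind Wnt ligands, had an end summit in all libraries, Dkk1 in 10, Dkk2 in 1 and Dkk3 in none. Dkk1 had deposited end summits in all 19 libraries. Sfrp1 averaged 5.95 and had 4 regions in all libraries, of which 3 were distal, chr8:23360947-23361090, chr8:23424999-23425396 and chr8:23470379-23470445. Dkk2, an inhibitor that binds Lrp6, had 5, 5, 5, 5, 4 and 3 matched summits in mutants on the RA diet, 4, 3, 5 and 5 in mutants, 2, 3, 5, 5 and 3 in controls on the RA diet, and 4, 3, 4 and 3 in controls. Sfrp2 had 3, 3, 3, 1, 2 and 3 in mutants on the RA diet, 5, 4, 2 and 3 in mutants, 5, 2, 2, 3 and 3 in controls on the RA diet, and 2, 5, 3 and 5 in controls. Neither gene separated any groups.

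The intracellular group shows how gene ends depend on annotation. Axin2, a scaffold of the destruction complex and a feedback target, had no matched summit within 1 kb of its outer ends in any library. Its listed RefSeq start lies inside the gene and had a matched summit within 500 bp in all 19 libraries, at a median of 49 bp downstream. Nkd1, which binds Dishevelled, was the reverse case. It had an end summit in all libraries, at -6.42 kb from its listed start, and none within 500 bp of that start. Ctnnb1, which encodes beta-catenin, had a start summit in 17 libraries. It also had regions in all 19 libraries at chr9:120855630-120855826 and chr9:120869545-120869687, which lie 77.6 and 63.8 kb upstream, the nearer one inside the long noncoding gene Gm34425. Sp5, a transcription factor that competes at Tcf/Lef targets, had an end summit in 7 libraries, at its start in 5 and at its far end in 2. Nkd1 had 4, 3, 3, 7, 5 and 8 matched summits in mutants on the RA diet, 6, 5, 6 and 4 in mutants, 4, 4, 5, 5 and 5 in controls on the RA diet, and 6, 6, 5 and 5 in controls. Sp5 had 1, 2, 1, 2, 0 and 1 in mutants on the RA diet, 2, 1, 1 and 1 in mutants, 1, 2, 2, 2 and 2 in controls on the RA diet, and 1, 2, 1 and 2 in controls.

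Among matched summits, sites of the Wnt family lay farther from gene ends than those of all genes. Of its 1573 matched summits, 20.5% lay within 1 kb of an end, 20.2% at 1 to 10 kb and 59.2% at 10 to 100 kb, against 39.3%, 19.5% and 41.2% of the 454178 assigned summits of all genes. Median distances were 15343 bp in the family and 4660.5 bp over all genes. Over all deposited summits the distances were closer, with medians of 15292 bp in the family and 13412 bp over all genes. There 13.0% of family summits lay within 1 kb, 27.7% at 1 to 10 kb and 59.2% at 10 to 100 kb, against 20.9%, 23.3% and 55.8% over all genes. The median family territory spanned 114 kb and that of all genes 46.4 kb, and its part in these distances was not tested. Of 133 family regions, 34 (25.6%) were seen in all 19 libraries, against 31.3% of the 36030 regions of all genes that lay within 100 kb of a gene end. The share was 6.06% of 33 regions at 1 to 10 kb against 21.4% of such regions over all genes, and 28.6% of 77 regions at 10 to 100 kb against 19.9%. At the ends it was 43.5% of 23 regions against 53.7%. For 50 of the 133 regions a noncoding gene lay nearer than the family gene, or held the region, and 3 regions lay inside another protein-coding gene. The distance of a region is the median over its summits, so single summits can fall on the other side of the 1 kb limit. Just outside that limit lay regions of Sp5 at 1004 bp and Dkk3 at 1022 bp, seen in 11 and 10 libraries. Just inside it lay regions of Wnt2 at 910.5 bp and Fzd8 at 750 bp, seen in 4 and 19 libraries.

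**Figure D3:**
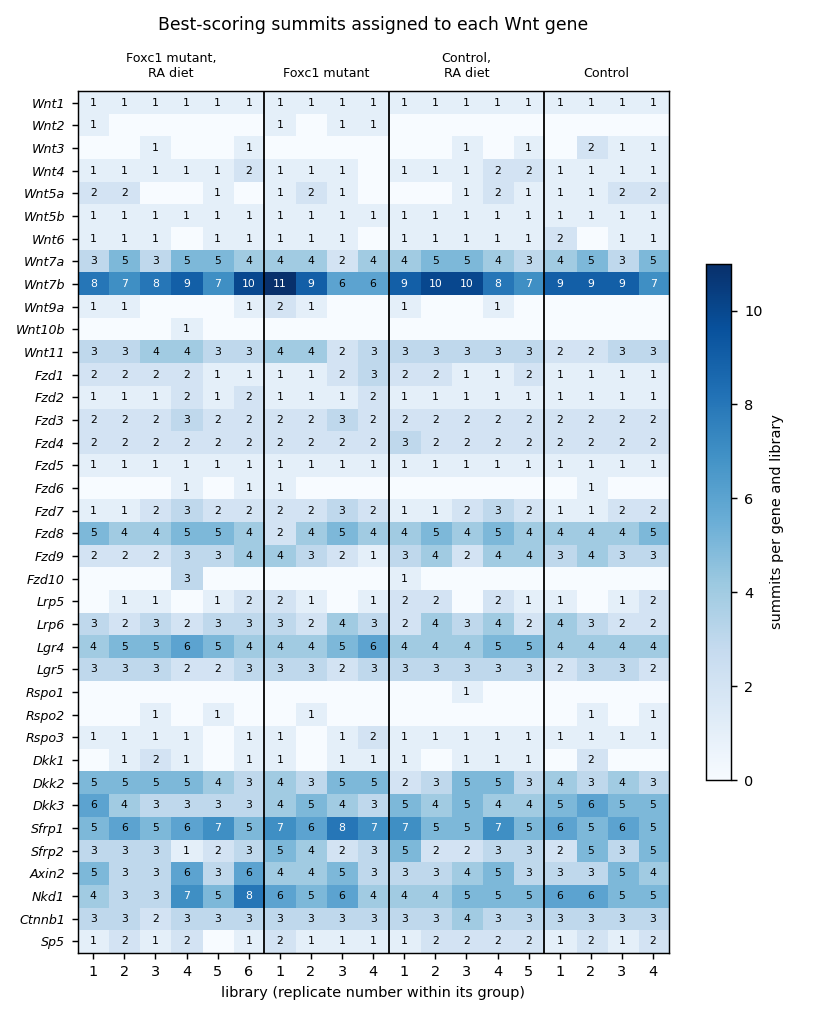
Matched summits assigned to each of the 38 Wnt family genes (rows, in the order of their roles) in each of the 19 libraries (columns, grouped), with empty cells for 0. Wnt7b holds 6 to 11 summits in every library, and Wnt1, Wnt5b and Fzd5 hold 1 in each.

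The comparisons between groups ask whether loss of Foxc1 or added retinoic acid moved open sites of Wnt genes in progenitors. The summed family count did not separate the groups. It was 76 to 92 matched summits in mutants on the RA diet (82.3 ± 6.62, SD, n = 6), 78 to 92 in mutants (83.5 ± 5.97, SD, n = 4), 79 to 92 in controls on the RA diet (83.4 ± 5.18, SD, n = 5) and 78 to 86 in controls (82.0 ± 3.37, SD, n = 4). Gene ends took 20.9 ± 2.80%, 20.01 ± 2.03%, 20.6 ± 1.12% and 20.1 ± 2.12% of these in the same order. By role, ligands averaged 21.7 ± 1.51 in mutants on the RA diet, 20.8 ± 5.62 in mutants, 22 ± 1.58 in controls on the RA diet and 21.8 ± 0.5 in controls (SD, n = 6, 4, 5 and 4). Frizzled genes averaged 18 ± 3.69, 17 ± 1.41, 17.6 ± 1.52 and 16.2 ± 0.957, and secreted antagonists 17.2 ± 1.72, 19.5 ± 1.29, 17.6 ± 2.61 and 18.5 ± 1.73, in that order. The ranges of single libraries overlapped between all groups for each of these roles.

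Gene by gene, matched summits were compared with limma on log2(summits + 0.5), over 10828 genes averaging 1 summit or more per library, a level that 27 of the 38 family genes reached. No family gene passed an adjusted p of 0.05 in any of the 6 comparisons (limma with Benjamini-Hochberg adjustment over all genes). For some of the 27 this outcome was fixed. Wnt1, Wnt5b and Fzd5 had the same count in every library. For Wnt5a the fit gave standard errors of 337 to 518, so no difference could have been called. Over all genes 0 were called in mutants against controls, 0 in controls on the RA diet against controls, 2 (0.0185%) in mutants on the RA diet against mutants, 3 (0.0277%) in mutants on the RA diet against controls on that diet, 3 (0.0277%) against controls, and 1 (0.00924%) in the interaction of genotype and diet. At an unadjusted limma p under 0.05 there was 1 of 27 family genes in mutants against controls (5.71% of all genes), 0 in controls on the RA diet against controls (4.25%), 1 in mutants on the RA diet against mutants (6.81%), 0 in mutants on the RA diet against controls on that diet (3.05%), 2 in mutants on the RA diet against controls (6.67%) and 0 in the interaction (3.49%). The comparisons share groups and are not independent of each other. Median log2 differences of the 27 genes lay between -0.02 and 0.04, where those of all genes were 0.

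Sfrp1 had 5, 6, 5, 6, 7 and 5 matched summits in mutants on the RA diet, 7, 6, 8 and 7 in mutants, 7, 5, 5, 7 and 5 in controls on the RA diet, and 6, 5, 6 and 5 in controls. Mutants without the diet were the highest group, though 6 summits occurred in all groups but the controls on the diet. The log2 difference of mutants from controls was 0.32 (SE 0.13, limma adjusted p = 0.794) and that of mutants on the RA diet from mutants was -0.29 (SE 0.12, limma adjusted p = 0.659). The interaction was -0.34 (SE 0.17, limma adjusted p = 1). None of these passed the test, and with only the best 14556 summits per library the first was 0 and the second -0.012.

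Dkk3, a divergent member of the Dickkopf family, had 6, 4, 3, 3, 3 and 3 matched summits in mutants on the RA diet, 4, 5, 4 and 3 in mutants, 5, 4, 5, 4 and 4 in controls on the RA diet, and 5, 6, 5 and 5 in controls. Of 6 mutants on the diet, 5 lay under the lowest control and 1 equalled the highest. The log2 difference between these groups was -0.50 (SE 0.16, limma adjusted p = 0.416). Wnt11, a ligand of noncanonical signalling, had 3, 3, 4, 4, 3 and 3 in mutants on the RA diet, 4, 4, 2 and 3 in mutants, 3 in each control on the RA diet, and 2, 2, 3 and 3 in controls. The log2 difference of mutants on the RA diet from controls was 0.36 (SE 0.15, limma adjusted p = 0.684), with the value of 3 shared by both groups. This difference and that of Dkk3 turned in sign when all deposited summits were used.

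**Figure D4:**
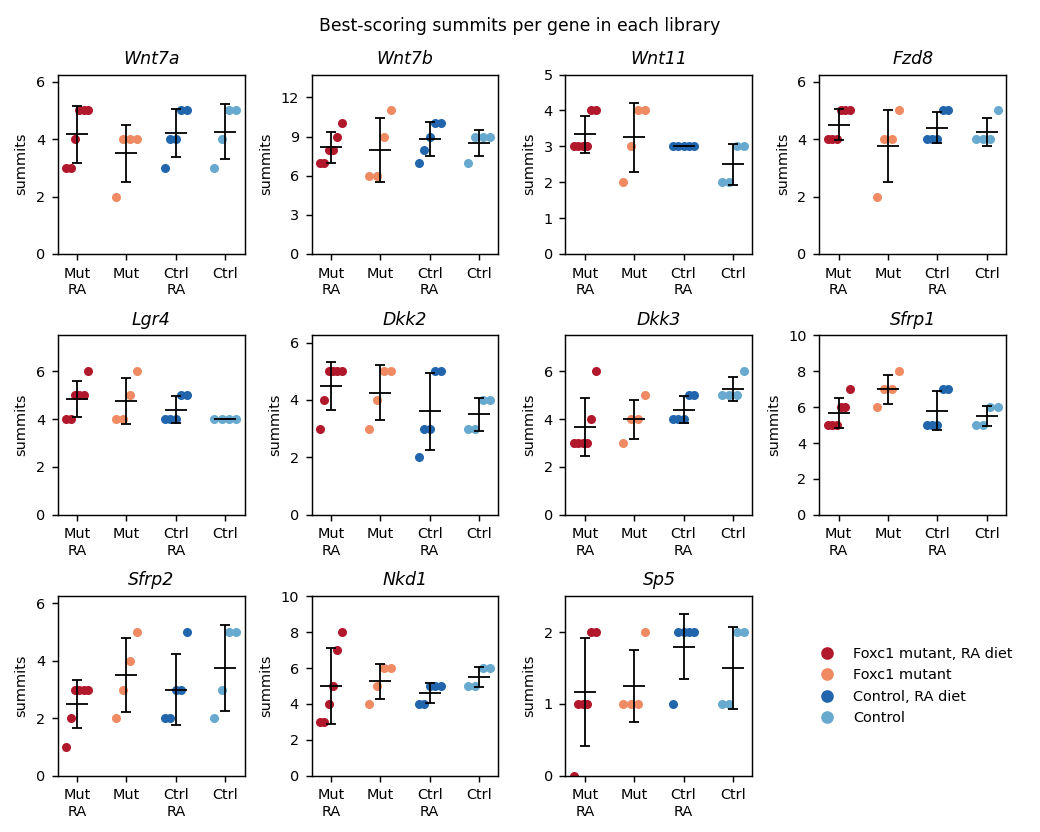
Matched summits per library for 11 Wnt family genes, with 1 point per library and bars for the mean ± SD of each group (Mut RA, mutants on the RA diet, n = 6; Mut, mutants, n = 4; Ctrl RA, controls on the RA diet, n = 5; Ctrl, controls, n = 4). Groups overlap in each panel, including Sfrp1, where mutants hold 6 to 8 summits and controls 5 or 6.

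With all deposited summits and log2 list length as a covariate, all 38 family genes entered a limma fit of 14784 genes, and again 0 were called in any comparison. Over all genes this fit called 2 (0.0135%) in controls on the RA diet against controls and 0 in each other comparison. Unadjusted limma p-values under 0.05 then numbered 4 in mutants against controls (5.45% of all genes), 0 in controls on the RA diet against controls (3.44%), 7 in mutants on the RA diet against mutants (12.1%), 1 in mutants on the RA diet against controls on that diet (3.98%), 1 against controls (4.24%) and 5 in the interaction (4.59%). List length moves with the groups, at 63769 ± 23749 summits in mutants on the RA diet, 95379 ± 30545 in mutants, 77804 ± 13693 in controls on the RA diet and 98555 ± 22068 in controls (SD, n = 6, 4, 5 and 4), and its part in these counts was not tested beyond that covariate.

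Presence of a matched summit was compared per region by exact tests. None of the 133 family regions was called, nor was any of the 44878 regions, and no family region was present in every library of 1 group and absent from every library of another. Over all regions such separation was seen for 0.152% in mutants against controls, 0.401% in controls on the RA diet against controls, 0.12% in mutants on the RA diet against mutants, 0.0178% against controls on the diet and 0.39% against controls. The smallest p that complete separation can give is 0.0286 for mutants against controls and 0.00216 for mutants on the RA diet against controls on that diet, by Fisher's exact test, so a pairwise call after adjustment would have needed many regions to separate at once. The tests of diet within genotype and of genotype within diet, exact and stratified on the other factor, can reach 3.78e-05 and 3.09e-05. Over 44878 regions a call by these tests would also have needed many regions at or near complete separation, so the lack of calls says little. At an unadjusted p under 0.05 there were 4 family regions for diet within genotype (4.15% of all regions) and 3 for genotype within diet (1.67%). Pairwise, there were 0 in mutants against controls (0.152%), 3 in controls on the RA diet against controls (2.62%), 0 in mutants on the RA diet against mutants (1.21%), 1 against controls on the diet (0.305%) and 3 against controls (2.75%). These counts are near the shares of all regions and fall on 8 regions of 5 genes.

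Of the 8 regions, 3 belong to Wnt7a. At chr6:91322460-91322552, 41.5 kb beyond the gene's far end, a matched summit was present in 4 of 6 mutants on the RA diet, 0 of 4 mutants, 4 of 5 controls on the RA diet and 0 of 4 controls. It had the lowest p of the family for diet within genotype (stratified exact p = 0.00454, adjusted over all regions p = 0.842). Deposited summits of any rank, matched ones included, were present there in 6 of 6, 3 of 4, 5 of 5 and 4 of 4 libraries of these groups. At chr6:91379396-91379518, inside the gene, the matched counts were 1 of 6 mutants on the RA diet, 2 of 4 mutants, 1 of 5 controls on the RA diet and 4 of 4 controls (stratified exact p = 0.0251 for diet, adjusted p = 0.890). At chr6:91347893-91347974 they were 1 of 6, 0 of 4, 3 of 5 and 3 of 4 in the same order (stratified exact p = 0.0238 for genotype, adjusted p = 1).

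Of the other 5 regions, the Sfrp2 region 1.28 kb beyond the gene (chr3:83775595-83775599) had a matched summit in 0 of 6 mutants on the RA diet, 2 of 4 mutants, 0 of 5 controls on the RA diet and 3 of 4 controls (stratified exact p = 0.00635 for diet, adjusted p = 0.842). Deposited summits were present in 4 of 6, 3 of 4, 4 of 5 and 4 of 4 of these. The Dkk2 region at 78.8 kb (chr3:132006353-132006486) was matched in 5 of 6, 2 of 4, 2 of 5 and 0 of 4 libraries in that order, and deposited in all 19 (Fisher's exact p = 0.0476 for mutants on the RA diet against controls, adjusted p = 1). The Lgr4 region inside the gene at 24.6 kb (chr2:109942176-109942353) was matched in 3 of 6 mutants on the RA diet and 2 of 4 mutants, against 0 of 5 controls on the RA diet and 0 of 4 controls (stratified exact p = 0.0390 for genotype, adjusted p = 1). Deposited summits were present in 4 of 6, 3 of 4, 1 of 5 and 3 of 4 libraries in the order of the groups above.

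The Sp5 start, whose sequence with its Tcf/Lef cores is given above, had a matched summit in the region chr2:70474613-70474960 in 4 of 6 mutants on the RA diet, 0 of 4 mutants, 1 of 5 controls on the RA diet and 0 of 4 controls (stratified exact p = 0.0418 for diet, adjusted p = 1). Deposited summits were there in 18 of 19 libraries. The second Sp5 region, chr2:70476721-70476727 in the gene's 3′ part, had a matched summit in 1 of 6 mutants on the RA diet against 5 of 5 controls on that diet (Fisher's exact p = 0.0152, adjusted p = 1). It was present in 2 of 4 mutants against 3 of 4 controls without the diet. Here deposited summits were also few in mutants on the diet, 2 of 6, against 5 of 5 controls on it.

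**Figure D5:**
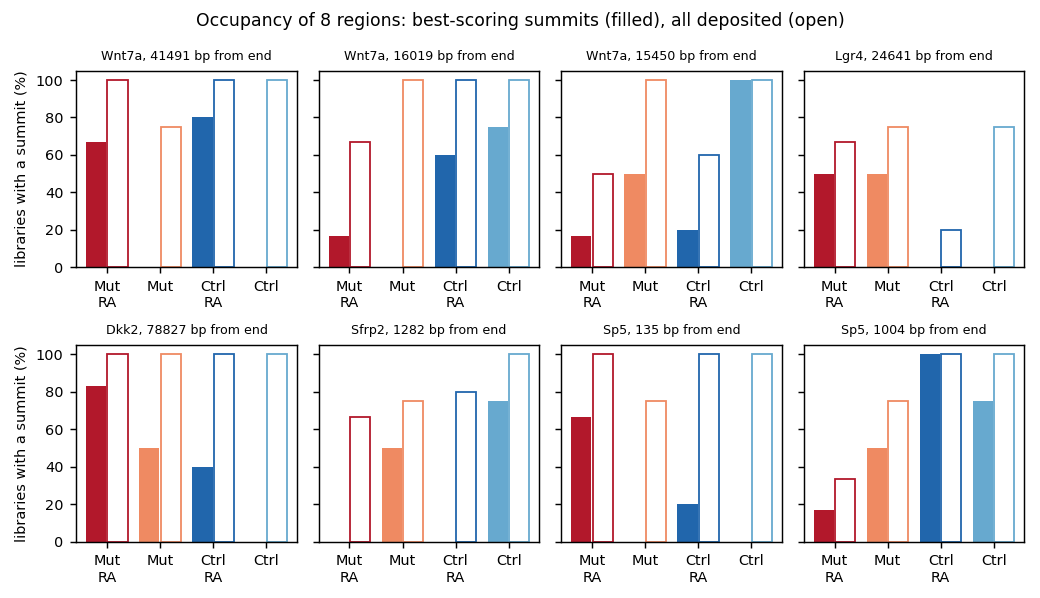
Percent of libraries with a summit in 8 regions of Wnt family genes in each group (Mut RA, mutants on the RA diet, n = 6; Mut, mutants, n = 4; Ctrl RA, controls on the RA diet, n = 5; Ctrl, controls, n = 4), filled for matched and open for all deposited summits, with distance from the nearest gene end above each panel. The open bars for Dkk2 at 78827 bp stand at 100% in every group, whereas its filled bars run between 83.3% in mutants on the RA diet and 0 in controls.

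Among the 457 family regions made from all deposited summits, none was called either. Of these, 4 were present in all 4 controls and in none of the 6 mutants on the RA diet (0.838% of 150489 regions over all genes), assigned to Lgr5, Wnt7b, Lrp5 and Sfrp2. Another Wnt7b region, chr15:85578013-85578186, was present in all 4 controls and none of the 5 controls on the RA diet (0.253%). No family region was absent from all libraries of the first group and present in all of the second in mutants against controls (0.0558%), in mutants on the RA diet against mutants (0.187%) or in mutants on the RA diet against controls on that diet (0.0233%). At an unadjusted exact p under 0.05 there were 24 of 457 for diet within genotype (7.22% of all regions), all of them less often present with the diet, 5 for genotype within diet (1.85%), 18 for mutants on the RA diet against controls (5.08%), 9 each for mutants on the RA diet against mutants (2.7%) and controls on the RA diet against controls (2.73%), 1 for mutants on the RA diet against controls on that diet (0.409%) and 0 for mutants against controls (0.0857%). The lists of both groups on the diet are shorter, and the part of list length in these losses was not tested. The direction over all regions is not given beside them, so the losses cannot be read as particular to the family. At gene ends, 0 of 38 family genes had an unadjusted exact p under 0.05 in any comparison, where the share over all genes was 0.0228% in mutants against controls, 0.397% in controls on the RA diet against controls, 0.201% in mutants on the RA diet against mutants, 0.0503% against controls on the diet, 0.279% against controls, 0.507% for diet within genotype and 0.279% for genotype within diet. This outcome was fixed for the 11 family genes with a matched end summit in all 19 libraries and the 12 with one in none. Wnt4, Wnt10b, Fzd10, Lrp5 and Dkk2, with one in 1 library each, could not reach that p either.

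The rest of the pathway was taken as a list of 74 genes, other Wnt genes, transducers, Tcf/Lef factors and targets. Of these, 29 had a matched end summit in all 19 libraries (39.2%) and 57 entered the limma fit. None was called in any comparison. At an unadjusted limma p under 0.05 there were 8 of 57 in mutants against controls (5 higher and 3 lower, against 5.71% of all genes), 2 in controls on the RA diet against controls (4.25% of all genes), 4 in mutants on the RA diet against mutants (6.81%), 2 against controls on that diet (3.05%), 9 against controls (4 higher and 5 lower, 6.67%) and 2 in the interaction (3.49%). The largest log2 difference among these was that of Lef1, a nuclear partner of beta-catenin, at 1.39 in mutants against controls (SE 0.32, limma adjusted p = 0.601) and 1.05 in mutants on the RA diet against controls (SE 0.29, limma adjusted p = 0.337). Ccnd2, a cyclin of cortical progenitors, differed by -0.87 in mutants on the RA diet against controls (SE 0.22, limma adjusted p = 0.240). Values under that threshold in any comparison were also seen for Tcf7l1, Tcf7l2, Wls, Tle1, Tle3, Prickle1, Tnik, Daam1, Bcl9, Bcl9l, Gpc3, Rnf43, Apcdd1, Wnt10a and Draxin.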

How the data were processed

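Peak summits were deposited per library for 19 ATAC-seq libraries. Per the submitters' processing notes, the tools were BWA, MACS2, Signac and DiffBind and the builds mm10 and GRCm38, without versions. The kit was from Zymo, per the labels' protocols. The deposited score of a summit is a −log10 q value as MACS2 writes it, read from the values: the lowest was 1.302, and a q of 0.05 gives about this value. Scores only ranked summits within a library. Read depth is unknown, so no interval that needs counts was computed, and list length (29112 to 122591) limits precision.

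Genes came from GRCm38.p6 (21887 protein-coding genes). Of all matched summits 82.1% lay within 100 kb of a gene end. Regions, gene ends and summits per gene were derived as stated with the results, with Python 3.11.15, scipy 1.17.1, R 4.3.3 and limma 3.58.1 (trend and robust empirical Bayes, 1 coefficient per group, pseudocount 0.5). Of the 10828 genes fitted, 3261 had no spread within any group. Presence was compared by two-sided Fisher's exact tests and exact stratified tests. All p-values were adjusted by Benjamini-Hochberg over all genes or regions of a comparison, threshold 0.05. Both kinds of test were also run on simulated data. For limma, changes were planted only in genes with a higher mean count than the fit required, so genes with few summits were not checked. Groups were taken from titles. The table of genes gives no strand, so gene ends stand for starts except where RefSeq promoters list a strand. Alternatives were the best 14556 summits per library, all deposited summits, other windows, chaining distances, filters and pseudocounts, a replicate block, and each library left out.

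Values per library were given for genes with an unadjusted p under 0.05 in any comparison or region and for the 5 with the most matched summits. Dkk3 had the same mean as Fzd8, the fifth of these, and was given for its p. The family members, lists and rules were chosen with earlier results of these data known.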

Additional observations from a re-analysis of the deposited data

Results flagged for a closer look

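Values of 11 genes and of 2 family sums (all matched summits, and those at gene ends) were screened within each group for a single library far from the rest of its group. Of 52 such sets of values 7 held one, and chance gives about 5%. In counts this small, a library that differs by 1 summit from others that are alike meets the criterion. Wnt7a had 2 matched summits in mutant 3, against 4 in each other mutant. Wnt7b had 7 in control 4, against 9 in each other control. Fzd8 had 5 in control 4, against 4 in the others. Dkk3 had 6 in mutant 1 on the RA diet, against 3 or 4 in the other mutants on the diet, and 6 in control 2, against 5 in the other controls. Sp5 had 2 in mutant 1, against 1 in the other mutants, and 1 in control 1 on the RA diet, against 2 in the other controls on the diet. Mutant 1 is the library whose genotype label goes against its title.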

How the results depend on the processing

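No family gene, region or gene end was called under any of 29 settings of summits per gene, 25 of regions and 23 of gene ends, main settings included. Over all genes and 6 comparisons, limma made 9 calls, against 3 with the best 14556 summits per library, 2 with all deposited summits, 2 with gene bodies and 5 kb, 5 with a window of 50 kb and 3 to 27 when each library was left out, the highest without mutant 6 on the RA diet. The replicate block gave 0 calls. Same-numbered libraries did not deviate together, with correlations of -0.138 to 0.158 over 25 pairs, and the labels do not say that numbers pair libraries. Family genes with an end summit in every library numbered 11, against 7 with the best 14556 summits, and 11 in each fit without a library. The end share of family summits was 20.5%, against 25.8% with the best 14556 summits, 13.0% with all deposited summits, 27.8% with a 2 kb window and 20.2% to 20.7% without single libraries. Reversals were seen for Wnt11 in mutants on the RA diet against controls, -0.061 with the best 14556 summits and -0.10 with all deposited summits, and for Dkk3 in the same comparison, 0.21 with all deposited summits. The cause was not tested. Without single libraries, Sfrp1 in mutants against controls was 0.26 to 0.39, Wnt11 in mutants on the RA diet against controls 0.28 to 0.44 and Dkk3 -0.64 to -0.44. Adjusted p-values over all settings ran between 0.123 and 1 for these 4 differences. The direction of the 8 regions turned under none of the settings in which the region existed, with a difference of 0 not counted as a turn. With all deposited summits some of their differences were 0. The 8 regions were picked for their p-values in these same libraries, and 19 of the settings only left out 1 library. A kept direction therefore adds no support.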
